A study of Mus musculus with 6 samples.

Results

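Glucose and fructose enter the body through a short chain of intestinal proteins, and 8 genes of that chain are described here in epithelium of Git2-knockout and wild-type mice. They were chosen by name from the 18159 genes of the deposited table: the transporter genes Slc5a1, Slc2a1, Slc2a2 and Slc2a5, the fructose-metabolising kinase genes Khk and Tkfc, and the sugar-sensing genes Mlxipl and Txnip. All 8 were in the table, and all 8 were among the 13558 genes expressed enough to be tested. Poly(A) RNA was sequenced in 3 libraries labelled Git2-knockout (Git2-KO) and 3 wild-type (WT) libraries, titled intestinal epithelial cells. The design text speaks instead of enteroids, which are epithelial organoids, grown out of mice aged 12 days. The mutant samples are knockouts in their titles and knockdowns in their genotype field, and strain, treatment, intestinal segment and the altered part of Git2 are not stated in the sources used here. Whether replicates are different animals or cultures is not stated either, so the p-values describe spread between these libraries, which may be technical.

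Absorptive cells of the small intestine take up glucose and galactose, the products of milk lactose, with sodium through the brush border cotransporter SGLT1, which Slc5a1 encodes. Fructose crosses the brush border by facilitated diffusion through GLUT5, the product of Slc2a5, and sugars leave the cell towards the blood mainly through GLUT2, the product of Slc2a2. GLUT1, the product of Slc2a1, is a widely expressed glucose carrier, abundant in red cell precursors and in some endothelia. Inside the cell, ketohexokinase (Khk) phosphorylates fructose, and triokinase (Tkfc) later phosphorylates the glyceraldehyde that fructose yields. ChREBP, the product of Mlxipl, and its relative MondoA are transcription factors that respond to sugar phosphates and bind DNA together with Mlx. Txnip, an alpha-arrestin that binds thioredoxin and limits glucose uptake through GLUT1, is one of their best known targets. In rodents GLUT5 is known to be scarce in the gut before weaning.

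ChREBP and MondoA act through carbohydrate response elements, which are pairs of E-box-like motifs, so the promoters were searched for such letters. All 8 genes matched the RefSeq promoter table (build GRCm38.p6, 9 promoters, with 2 start sites for Mlxipl), which covers 250 bases before and 50 after each start site. A pair of CACGNG motifs in the same orientation, 5 bases apart, searched on both strands, was found in Txnip alone of the 8 genes and in 0.0487% of all 32851 promoters of the table. The single E-box CACGTG, which reads the same on both strands and does not overlap the Txnip match, was found in Khk, Slc5a1 and one Mlxipl promoter and in 7.15% of all promoters. No such match lay in the windows of Slc2a1, Slc2a2, Slc2a5 and Tkfc. The 4 sequences with a match are shown for where the match lies. Their genes were lower in the Git2-KO libraries, as were Slc2a2, Slc2a5 and Tkfc, which have no match. Each runs from base -160 to base -41 relative to the start site, with the match in capitals, and all lie on the + strand. The windows are chr3:96557797-96557916 for Txnip, chr5:30921399-30921518 for Khk, chr5:33104059-33104178 for Slc5a1 and chr5:135089730-135089849 for Mlxipl.
Txnip: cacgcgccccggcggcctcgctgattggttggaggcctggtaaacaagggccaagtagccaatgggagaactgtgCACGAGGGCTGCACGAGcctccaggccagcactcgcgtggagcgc
Khk: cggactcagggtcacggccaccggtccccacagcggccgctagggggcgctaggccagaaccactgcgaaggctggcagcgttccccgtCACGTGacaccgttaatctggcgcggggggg
Slc5a1: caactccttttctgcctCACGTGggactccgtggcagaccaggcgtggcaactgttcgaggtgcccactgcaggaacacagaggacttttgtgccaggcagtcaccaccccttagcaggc
Mlxipl: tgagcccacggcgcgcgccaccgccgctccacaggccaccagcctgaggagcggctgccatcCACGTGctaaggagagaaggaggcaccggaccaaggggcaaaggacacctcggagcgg

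The Git2-KO libraries held 16284414 to 16837158 estimated reads and the WT libraries 18753649 to 19106581. Git2 itself, on chromosome 5 with Slc5a1, Khk and Mlxipl, was at 17.4, 15.5 and 16.8 CPM in Git2-KO and at 22.2, 23.7 and 22.7 CPM in WT libraries (log2 fold change -0.47, SE 0.07, edgeR quasi-likelihood test, Benjamini-Hochberg adjusted p = 4.44e-05). CPM are read counts relative to the library total, scaled between libraries by edgeR's TMM factors. Transcript of Git2 thus persisted, so its level does not check the genotype and directions below are those of the libraries so labelled. The epithelial markers Epcam (2509 ± 90.8 CPM in Git2-KO and 2495 ± 15.1 CPM in WT libraries) and Vil1 (1507 ± 58.9 and 1683 ± 24.9 CPM in the same order; SD, n = 3 each) were abundant in both groups. Mesenchymal, endothelial and red cell genes were also present and higher in the Git2-KO libraries, and their values are given beside Slc2a1.

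Of the 8 genes, 7 fell and 1 rose in the Git2-KO libraries by edgeR at an adjusted p of 0.05. The falls ran from a log2 fold change of -0.77 for Khk to -0.31 for Txnip, and the rise, in Slc2a1, was 0.46. Among all tested genes 57.0% were called, 27.4% of them all being lower and 29.6% higher, so a call by itself is common in this comparison. With DESeq2, with limma-trend on log2(TPM + 1), with the GC trend of each library removed and with both length and GC trends removed, Slc2a1 rose, 6 genes fell and Slc2a5 was not called. The shares of tested genes called lower in those fits were 24.0%, 14.0%, 28.2% and 27.2%, and the shares called higher 23.8%, 42.1%, 19.3% and 18.6%. The median log2 fold change was -0.40 over the 8 genes and 0.02 over all tested genes, with a median absolute value of 0.25 over all. The Git2-KO and WT values in CPM were apart in 7 of the 8 genes, against 62.9% of tested genes, and Slc2a5 was the exception. In bulk samples fewer cells of a type and less RNA per cell cannot be told apart.

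**Figure D1:**
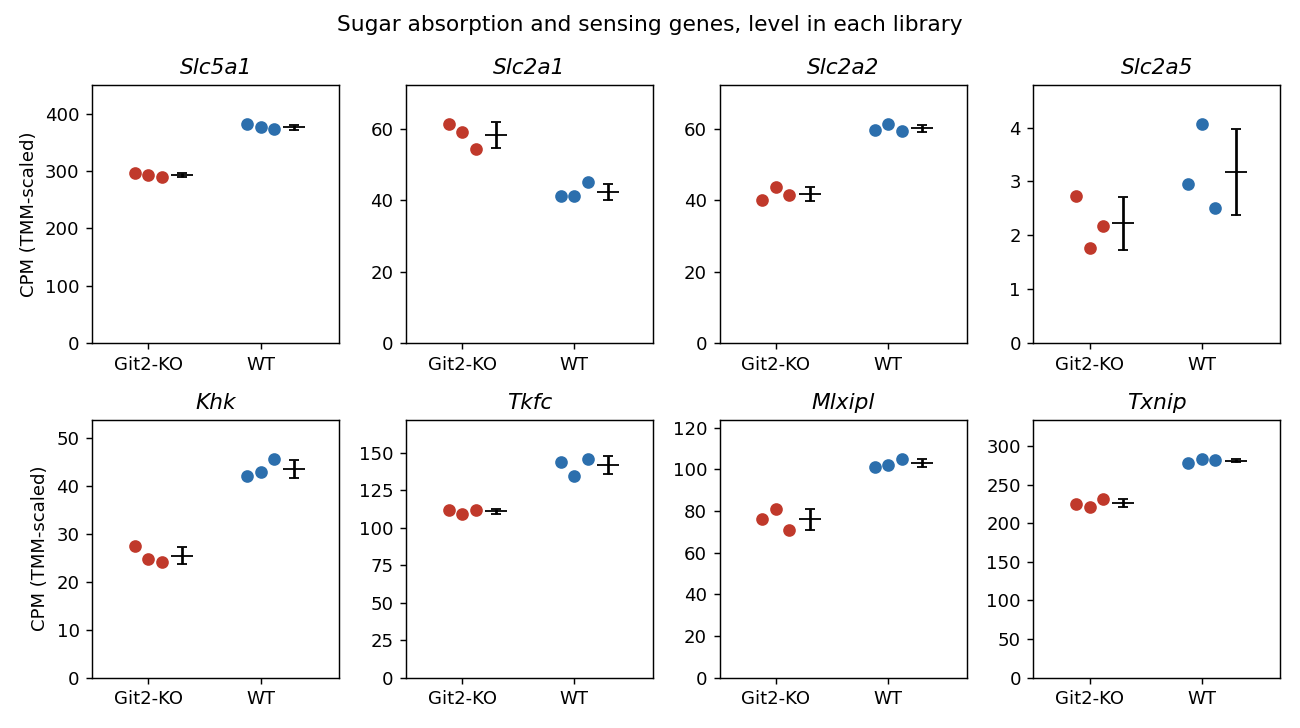
Level of each gene in each library, in TMM-scaled CPM on axes that start at 0, with Git2-KO libraries in red and WT libraries in blue; the black bar is the mean ± SD of 3 libraries. Slc2a1 is higher in all 3 Git2-KO libraries, 6 genes are lower in all 3, and the points of Slc2a5, at 1.76 to 4.06 CPM, overlap.

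Per transcript length, the scale on which genes can be compared with each other, Txnip and Slc5a1 were the most abundant of the 8 and Slc2a5 the least. In Git2-KO libraries the order in TPM (the deposited unit that corrects for length and library total) was Txnip (186 ± 5.80), Slc5a1 (171 ± 2.87), Tkfc (113 ± 1.23), Slc2a1 (52.6 ± 2.86), Mlxipl (45.6 ± 3.86), Khk (41.0 ± 1.95), Slc2a2 (37.5 ± 2.59) and Slc2a5 (2.38 ± 0.465). In WT libraries it was Txnip (207 ± 1.16), Slc5a1 (196 ± 4.06), Tkfc (129 ± 5.45), Khk (62.2 ± 2.40), Mlxipl (56.1 ± 0.618), Slc2a2 (48.4 ± 0.906), Slc2a1 (34.1 ± 1.59) and Slc2a5 (2.98 ± 0.744; SD, n = 3 each). By these means Slc2a1 stood above Mlxipl, Khk and Slc2a2 in Git2-KO libraries and below all 3 in WT libraries. In Git2-KO libraries the values of the neighbours Slc2a1 and Mlxipl, Mlxipl and Khk, and Khk and Slc2a2 overlapped, whereas no neighbours in the WT order did. TPM raised the whole comparison, with a median log2 fold change of 0.14 over all tested genes in a limma-trend fit of log2(TPM + 1), so each fall is smaller on that scale and the rise of Slc2a1 larger.

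Slc5a1, which brings luminal glucose and galactose into the enterocyte, was lower in the Git2-KO libraries. It was at 297, 293 and 290.3 CPM in the 3 Git2-KO libraries and at 382, 377 and 373 CPM in the 3 WT libraries. The libraries of each group lay close together, and the gap between the groups was many times their spread. Its level in Git2-KO libraries was 77.8% of WT (95% interval 73.7% to 82.2%; log2 fold change -0.36, SE 0.04, edgeR adjusted p = 6.75e-07). These values rest on 4897 to 7094 reads per library, the most of any of the 8 genes. On the log2(TPM + 1) scale the fold change was -0.20 (limma-trend adjusted p = 6.66e-04).

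Slc2a2, the basolateral exit route for glucose, galactose and fructose, was lower by a larger estimate than Slc5a1. It was at 40.0, 43.8 and 41.6 CPM in Git2-KO libraries and at 59.8, 61.4 and 59.6 CPM in WT libraries, and every Git2-KO library lay below every WT library. The level was 69.3% of WT (95% interval 64.2% to 74.9%; log2 fold change -0.53, SE 0.05, edgeR adjusted p = 4.21e-07). Slc2a2 is among the more AT-rich transcripts, at the 11.0 percentile of GC content among tested genes, and with the GC trend of each library removed its fold change was -0.86 (edgeR adjusted p = 6.03e-09). The fold change was -0.53 with the length trend removed, -0.76 with both trends removed and -0.36 on the log2(TPM + 1) scale. The ratio of Slc2a2 to Slc5a1 in TPM was 0.207, 0.230 and 0.221 in Git2-KO libraries and 0.241, 0.251 and 0.246 in WT libraries. The ratios did not overlap between the groups, at the smallest p that an exact permutation test of 3 against 3 libraries can give (two-sided exact p = 0.1, Benjamini-Hochberg adjusted 0.150 over 9 ratios and shares).

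Slc2a5, the fructose carrier, was scarce in both groups, with 30 to 76 reads per library. It was at 2.73, 1.76 and 2.18 CPM in Git2-KO libraries and at 2.96, 4.06 and 2.50 CPM in WT libraries. The highest Git2-KO library lay above the lowest WT library. The estimated level was 70.0% of WT with a wide interval of 51.3% to 95.4% (log2 fold change -0.52, SE 0.21, edgeR adjusted p = 0.0471). That call was lost under 15 of 20 alternatives, among them DESeq2 (adjusted p = 0.106) and the omission of WT replicate 2 (log2 fold change -0.30, adjusted p = 0.266), of WT replicate 1 (-0.56, 0.0719), of Git2-KO replicate 2 (-0.38, 0.163) or of Git2-KO replicate 3 (-0.52, 0.102). Its TPM ratio to Slc5a1 was 0.0139 ± 0.00295 in Git2-KO libraries and 0.0151 ± 0.00375 in WT libraries (SD, n = 3 each; exact permutation p = 0.6).

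Slc2a1 was the only one of the 8 genes that was higher in the Git2-KO libraries. It was at 61.4, 59.3 and 54.5 CPM in Git2-KO libraries and at 41.2, 41.2 and 45.1 CPM in WT libraries. All 3 Git2-KO libraries lay above all 3 WT libraries, by more than the spread within either group. The level was 137% of WT (95% interval 126% to 149.8%; log2 fold change 0.46, SE 0.06, edgeR adjusted p = 6.83e-06). The TPM ratio of Slc2a1 to Slc2a2 was 1.55, 1.35 and 1.31 in Git2-KO libraries and 0.689, 0.670 and 0.757 in WT libraries. Slc2a1 thus exceeded Slc2a2 per length in every Git2-KO library and in no WT library (exact permutation p = 0.1, the smallest possible here).

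Marker lists of other cell types moved in both directions, beside 29.6% of all tested genes called higher and 27.4% called lower. Of 13 endothelial markers tested 12 rose, with a summed level of 63.1 to 71.3 CPM in Git2-KO and 28.1 to 29.0 CPM in WT libraries, and the endothelial adhesion gene Pecam1 was at 11.5 ± 1.21 and 5.31 ± 0.638 CPM in that order (SD, n = 3 each). Of 6 erythroid markers tested out of 11, 4 rose, with a sum of 75.3 to 85.2 CPM in Git2-KO and 23.8 to 25.7 CPM in WT libraries. No erythroid marker was at 0 in a whole group, but 6 of the 11, including the red cell anion exchanger gene Slc4a1, were below 1 CPM in every library. Of 11 fibroblast and smooth muscle markers tested out of 12, 10 rose, with sums of 123 to 128 CPM in Git2-KO and 38.0 to 42.1 CPM in WT libraries. All 5 B cell markers tested fell, with sums of 6.12 to 7.40 CPM in Git2-KO and 15.3 to 16.6 CPM in WT libraries, and 5 of 6 goblet markers fell (median log2 fold change -0.33). With length and GC trends removed the goblet marker Tff3 turned to 0.25, while Clca1 (-0.76), Fcgbp (-0.36), Spink4 (-0.33) and Agr2 (-0.11) were still called lower. On the log2(TPM + 1) scale Clca1, Spink4 and Agr2 were called lower, and Fcgbp (-0.04) and Tff3 (-0.11) were not called. Of 9 macrophage markers 2 rose and 1, the receptor gene Csf1r, fell (-1.12). The sum was 135 to 137 CPM in Git2-KO and 234 to 237 CPM in WT libraries. Csf1r made up most of it, at 90.7 ± 0.992 and 197 ± 2.49 CPM in that order (SD, n = 3 each), so the sum does not describe the other macrophage markers. The part of these cell types in the rise of Slc2a1 was not tested.

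**Figure D2:**
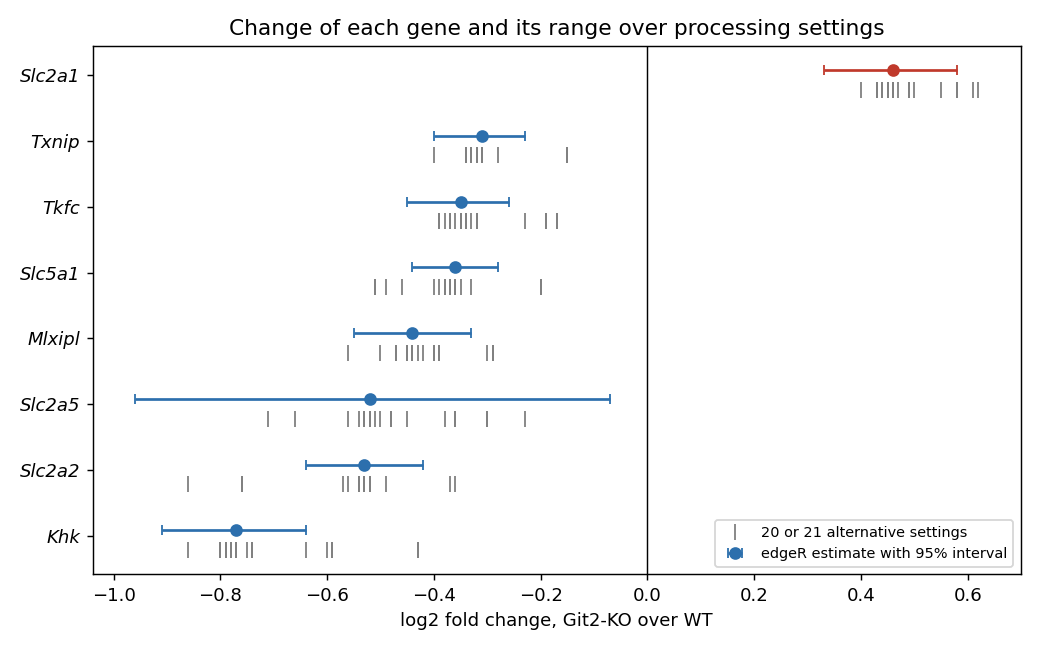
Log2 fold change (Git2-KO over WT) of each gene, as the edgeR estimate with its 95% interval (red for a rise, blue for a fall); grey ticks give the same value under 20 or 21 alternative settings. All ticks of a gene lie on one side of 0, from 0.40 to 0.62 for Slc2a1 and from -0.86 to -0.43 for Khk, and Slc2a5 has the widest interval, -0.96 to -0.07.

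Among 21 hexose and polyol transporter genes, the summed TPM was 422 to 432 in Git2-KO and 458 to 462 in WT libraries. Slc5a1 made up 39.9%, 40.2% and 40.0% of that sum in Git2-KO libraries and 43.6%, 42.4% and 42.1% in WT libraries. The share of Slc2a1 was 12.8%, 12.6% and 11.6% in Git2-KO libraries, against 7.25%, 7.14% and 7.84% in WT libraries. Slc2a2 made up 8.78% ± 0.501 in Git2-KO and 10.5% ± 0.148 in WT libraries, and Slc2a5 0.558% ± 0.116 and 0.647% ± 0.159 (SD, n = 3 each). The shares of Slc5a1, Slc2a1 and Slc2a2 did not overlap between the groups, each at the smallest possible exact permutation p of 0.1, while the share of the other 17 transporters was 38.3% ± 0.814 in Git2-KO and 38.7% ± 0.635 in WT libraries (exact p = 0.6). Shares of one sum are not independent of each other.

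**Figure D3:**
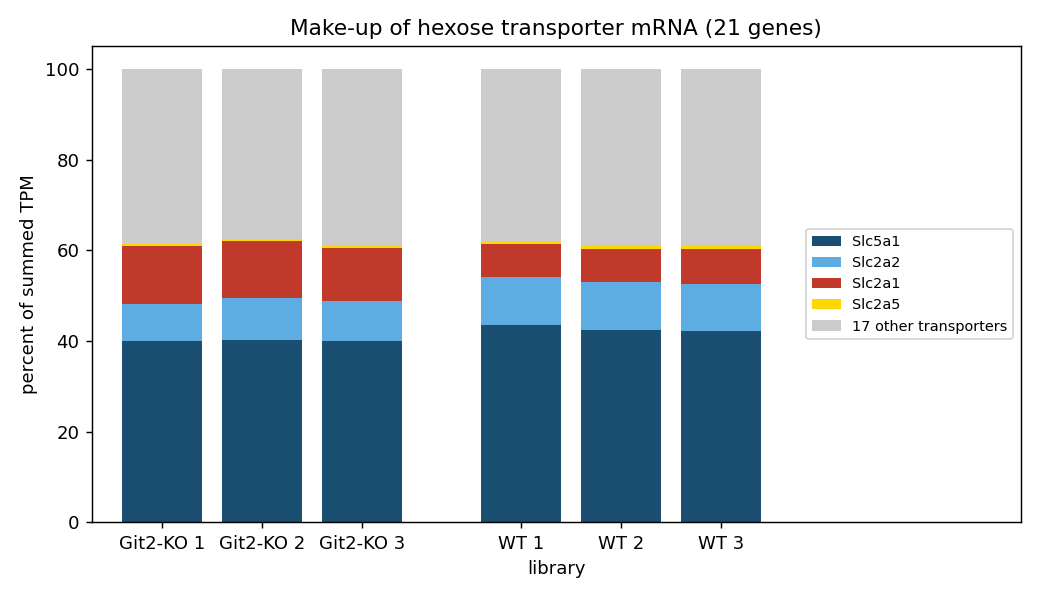
Share of each transporter in the summed TPM of 21 hexose transporter genes, as a stacked bar for each of the 6 libraries. Slc2a1 (red) takes 11.6% to 12.8% in the Git2-KO bars and 7.14% to 7.84% in the WT bars, and Slc2a5 (yellow) stays under 1% in all 6.

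Among the 17 other transporters 11 could be tested, of which 4 fell and 2 rose, beside 27.4% and 29.6% of all tested genes. The median log2 fold change of the 11 was -0.08, and it was -0.31 with no filter on low counts and -0.43 to -0.05 with 1 library left out. Some sodium-coupled carriers related to Slc5a1 were lower too. Slc5a9, a mannose, fructose and glucose cotransporter (SGLT4), was at 24.3 ± 1.62 CPM in Git2-KO and 44.0 ± 2.51 CPM in WT libraries, Slc5a11, a myo-inositol and glucose cotransporter, at 36.5 ± 0.909 and 55.8 ± 0.585 CPM, and Slc5a4b, a relative of Slc5a1, at 1.94 ± 0.0636 and 3.24 ± 0.293 CPM (SD, n = 3 each). Their log2 fold changes were -0.86, -0.61 and -0.74 (edgeR adjusted p = 2.35e-08, 6.31e-08 and 0.00130), and all 3 were still called under every alternative in which they were tested. The fourth, Slc50a1, a sugar uniporter of the SWEET family, was called lower (-0.31, adjusted p = 0.0305), a call lost or turned under 12 of 21 alternatives. The 2 that rose carry myo-inositol, Slc5a3 (log2 fold change 1.02) and the proton-coupled Slc2a13 (0.68), and lay at 0.40 and 0.31 with both trends removed, still called. Slc2a8, an intracellular hexose carrier with 72.1 ± 2.24 TPM in Git2-KO and 68.3 ± 2.92 TPM in WT libraries, was at 65.3 ± 2.54 CPM in Git2-KO and 68.8 ± 3.54 CPM in WT libraries (edgeR adjusted p = 0.236).

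Khk showed the largest change of the 8 genes on counts, but not with the GC trend or both trends removed, where Slc2a2 led, nor on the log2(TPM + 1) scale, where Slc2a1 led. It was at 27.5, 24.8 and 24.1 CPM in Git2-KO libraries and at 42.1, 42.9 and 45.7 CPM in WT libraries, with no overlap. The level was 58.5% of WT (95% interval 53.3% to 64.1%; log2 fold change -0.77, SE 0.06, edgeR adjusted p = 4.85e-08). In absolute size this change lay at the 92.0 percentile of tested genes. The Khk transcript is short and GC-rich, at the 16.9 percentile of length and the 94.5 percentile of GC content. With the length and GC trends of each library removed its fold change was -0.43 (edgeR adjusted p = 2.48e-07). Counts per gene do not separate the high-affinity and low-affinity isoforms of ketohexokinase, which come from alternative exons of Khk.

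Tkfc, which acts last in fructose breakdown, was lower by less than Khk. It was at 112, 109 and 112 CPM in Git2-KO libraries and at 144, 135 and 146 CPM in WT libraries. The WT libraries varied more among themselves, but the lowest of them lay above every Git2-KO library. The level was 78.4% of WT (95% interval 73.4% to 83.7%; log2 fold change -0.35, SE 0.04, edgeR adjusted p = 6.29e-06), and the fold change was -0.17 with both trends removed (adjusted p = 3.32e-04).

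Of 10 other tested genes of fructose and galactose breakdown, 6 fell and 1 rose, beside 27.4% and 29.6% of all tested genes. The median log2 fold change of the 10 was -0.14, and it was 0.02 on the log2(TPM + 1) scale and -0.00 with both trends removed. Galk1, the galactose kinase, had a fold change of -0.27 that turned to 0.08 with both trends removed. Of 12 tested genes of hexose phosphorylation and glucose release 7 fell, with a median of -0.23 that was -0.06 on the log2(TPM + 1) scale. Hkdc1, a hexokinase-like gene, was at 104 ± 3.82 CPM in Git2-KO and 169 ± 4.82 CPM in WT libraries, Hk2, a hexokinase, at 18.3 ± 1.97 and 27.6 ± 1.03 CPM, and Pck1, the gluconeogenic carboxykinase, at 783 ± 7.92 and 1031 ± 15.4 CPM (SD, n = 3 each). Their fold changes of -0.70, -0.59 and -0.40 were called under every alternative.

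Mlxipl, the gene of ChREBP, was lower in the Git2-KO libraries. It was at 76.4, 80.9 and 70.7 CPM in Git2-KO libraries and at 101, 102 and 105 CPM in WT libraries. Git2-KO libraries were the more variable group, and still none reached the lowest WT library. The level was 73.8% of WT (95% interval 68.4% to 79.7%; log2 fold change -0.44, SE 0.05, edgeR adjusted p = 2.89e-06), with -0.29 once the GC trend was removed (adjusted p = 1.83e-04). Its DNA-binding partner Mlx was at 62.3 ± 4.82 CPM in Git2-KO and 68.9 ± 0.393 CPM in WT libraries (SD, n = 3 each; edgeR adjusted p = 0.0342), a call lost or turned under 10 of 21 alternatives. Mlxip, the gene of MondoA, was at 90.7 ± 5.63 and 90.8 ± 4.31 CPM (adjusted p = 0.981). Counts per gene do not separate transcripts from the 2 start sites of Mlxipl.

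Txnip, the sugar-induced arrestin, had the smallest change of the 8 genes on counts with all 6 libraries, whereas Tkfc had it with the length trend, the GC trend or both removed. It was at 225, 221 and 231 CPM in Git2-KO libraries and at 278, 283 and 282 CPM in WT libraries, 2 tight groups that did not overlap. The level was 80.5% of WT (95% interval 76.0% to 85.2%; log2 fold change -0.31, SE 0.04, edgeR adjusted p = 4.85e-06). On the log2(TPM + 1) scale it was -0.15 (limma-trend adjusted p = 0.00409). The TPM ratio of Txnip to Mlxipl was 4.04, 3.72 and 4.52 in Git2-KO libraries and 3.72, 3.71 and 3.62 in WT libraries, a narrow separation (exact permutation p = 0.1, the smallest possible).

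Arrdc4, the alpha-arrestin most related to Txnip and like it a known target of MondoA, was higher in the Git2-KO libraries. It was at 353 ± 3.28 CPM in Git2-KO and 259 ± 3.93 CPM in WT libraries (SD, n = 3 each; log2 fold change 0.45, edgeR adjusted p = 7.76e-08), a rise that was called under all 21 alternatives, at 0.32 to 0.58. Arrdc3, another alpha-arrestin, rose as well (0.57, edgeR adjusted p = 2.45e-07), by 0.15 with both trends removed (edgeR adjusted p = 0.00791). Among Txnip partners and relatives, a list without Arrdc4, 5 of 10 tested genes fell and 2 rose, beside 27.4% and 29.6% of all tested genes. The 2 were Arrdc3 and Itch, and Itch (0.39) lay at -0.02 with both trends removed. The median of the 10 was -0.18, and -0.02 on the log2(TPM + 1) scale. Txn1, the thioredoxin that Txnip binds, was at 287 ± 25.2 CPM in Git2-KO and 371 ± 9.99 CPM in WT libraries, and the stress-induced Ddit4 at 38.6 ± 1.36 and 54.4 ± 2.82 CPM, both called under every alternative.

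Of 19 tested partners and targets of ChREBP and MondoA, 7 rose and 6 fell, beside 29.6% and 27.4% of all tested genes. Their median log2 fold change was 0.09, 0.25 on the log2(TPM + 1) scale, -0.08 after removal of the length trend and -0.01 after removal of both trends. Pentose and lipid genes lay on both sides: Tkt, a transketolase (-0.46), Tm6sf2, a lipid export gene (-0.69), and Gpd1, a glycerol phosphate dehydrogenase (-0.31), fell under every alternative, while the desaturase Scd2 (0.40) rose under every alternative. The fatty acid elongase Elovl6 (0.41) and the synthase Fasn (0.22) were called higher, and with both trends removed they lay at 0.03 and 0.04 and were not called (Fasn lay at -0.15 with the length trend alone removed). Pklr, the pyruvate kinase of liver and gut, was at 477 ± 5.38 CPM in Git2-KO and 440.1 ± 8.02 CPM in WT libraries (SD, n = 3 each; edgeR adjusted p = 0.0122, a call lost under 4 of 21 alternatives).

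**Figure D4:**
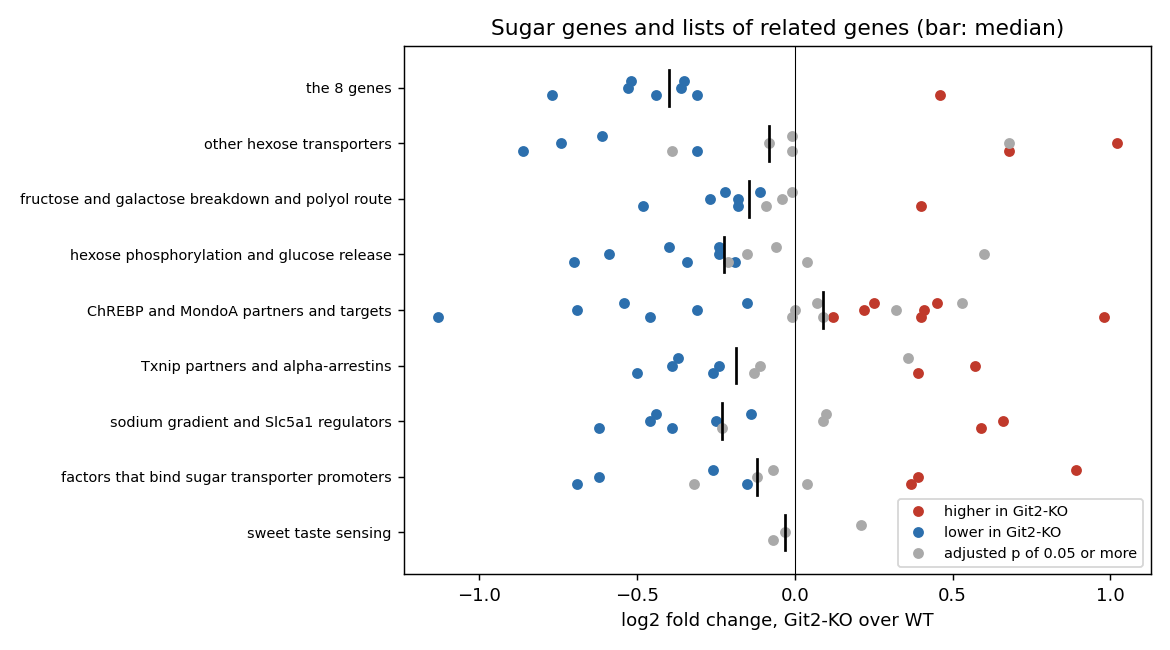
Log2 fold change (Git2-KO over WT) of the 8 genes and of the tested genes of 8 related lists, 1 point a gene, red where higher and blue where lower at an edgeR adjusted p under 0.05, grey otherwise, with a black bar at the median. The medians run from -0.40 for the 8 genes to 0.09 for ChREBP and MondoA partners and targets.

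Of 11 tested genes that supply the sodium gradient or act on SGLT1, 6 fell and 2 rose, beside 27.4% and 29.6% of all tested genes. The median of the 11 was -0.23, and it was -0.08 on the log2(TPM + 1) scale and -0.00 with both trends removed. Sgk1, a kinase that raises SGLT1 activity, was at 319.6 ± 9.70 CPM in Git2-KO and 419 ± 5.90 CPM in WT libraries, and Pdzk1, a brush border scaffold, at 399 ± 17.3 and 543 ± 8.91 CPM (SD, n = 3 each; log2 fold changes -0.39 and -0.44). Both catalytic subunit genes of AMP kinase, Prkaa1 (0.59) and Prkaa2 (0.66), rose, and lay at 0.11 and 0.04 once both trends were removed (Prkaa2 no longer called). Among 11 factors known to act on sugar transporter promoters, 3 rose and 4 fell, beside 29.6% and 27.4% of all tested genes. Gata4 (-0.62) and Foxa3 (-0.69) fell and Hnf4g (0.89) and Foxa1 (0.37) rose under every alternative. In the sweet taste list 3 of 5 genes in the table were tested and edgeR called 0, with unadjusted p-values of 0.417 or more. DESeq2 and limma-voom called 0 as well. With the length trend or both trends removed 1 was called lower, Itpr3, which lay at -0.16 with both removed (edgeR adjusted p = 5.22e-04). In that last fit 27.2% of all tested genes were called lower. The sweet receptor subunit Tas1r2 and the taste channel Trpm5 had 0 to 13 reads per library and were not tested.

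The falls of Slc5a1, Slc2a2, Khk, Tkfc, Mlxipl and Txnip stood beside changes of other enterocyte genes in both directions. Of 20 absorptive enterocyte genes 11 fell and 6 rose, beside 27.4% and 29.6% of all tested genes. The median of the 20 was -0.15, and 0.01 on the log2(TPM + 1) scale. Over the 21 alternatives 6 to 14 of them were called lower and 2 to 8 higher, while the shares of all tested genes called moved too. Lactase (Lct), which releases the glucose and galactose that Slc5a1 carries, was at 1385 ± 117 CPM in Git2-KO and 2086 ± 19.2 CPM in WT libraries. Sucrase-isomaltase (Sis), which normally appears at weaning, was at 24.1 ± 1.88 and 12.8 ± 0.229 CPM in that order (SD, n = 3 each). Their log2 fold changes were -0.59 and 0.92, both called under every alternative. With both trends removed these fold changes were -0.76 and 0.38. Of 10 proximal small intestine genes 6 fell and 3 rose, with a median of -0.37, and of 9 distal genes 5 fell and 1 rose, with a median of -0.47. On the log2(TPM + 1) scale these medians were -0.21 and -0.30, and the distal median was -0.34 with the GC trend removed. Of 7 general epithelial genes 5 fell, with a median of -0.16. With both trends removed Krt19 (-0.29) and Vil1 (-0.11) were still called lower. Krt18 and Cldn7 turned to 0.17 and 0.13 in that fit, Epcam lay at 0.17, and Krt8 (-0.02) was not called. The part of cell composition or of intestinal segment in the falls of the sugar genes was not tested.

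Many genes outside the pathway followed the same pattern over the 6 libraries. Among 11451 named genes whose log2 CPM averaged 1 or more, those most like Slc5a1 were the ribosomal protein gene Rpl23 and Lrrc59 (Pearson's r 0.999 each), those most like Khk were Dpp3 and Espn (1.000 each), and those most like Txnip were Irf3 and Rfng (1.000 each). Slc2a1 was most like Lekr1 (1.000) and Rpgr (0.998), Slc2a2 like Nedd4l and Rexo4 (0.999 each), Tkfc like Qsox1 (0.999) and Gsta4 (0.998), Mlxipl like Acot5 and Ilvbl (0.998 each), and Slc2a5 like Supt7l (0.985) and Cars2 (0.984). The 6 points of each correlation share the 2 groups of libraries, so any gene that separates them correlates. An r above 0.95 was reached by 12.6% of these genes with Slc5a1, by 14.3% with Khk, by 5.22% with Slc2a1 and by 0.105% with Slc2a5.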

How the data were processed

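Libraries were made from total RNA by oligo(dT) capture, per the labels' protocols. HISAT, Bowtie2, RSEM and the build GRCm39 are named, without versions, in the submitters' processing notes. Some list genes are not reported here by name. No source used here gives the annotation or strand setting, so reads of overlapping genes on opposite strands may not be separated. The authors deposited estimated counts, TPM and FPKM for each library, per the file headers. Of the estimated counts, 58.9% to 69.2% per library were not whole. Groups and replicate numbers came from the sample titles.

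Rounded estimated counts went into edgeR 4.0.16 under R 4.3.3 (filterByExpr, TMM, robust quasi-likelihood test, two-sided, no covariates, Benjamini-Hochberg over 13558 genes, threshold 0.05). Standard errors are the log2 fold change over the square root of F. The steps were tested on simulated data. Alternatives were other scalings and filters, DESeq2 1.42.0, limma 3.58.1 (voom, and trend on log2(TPM + 1) and log2(TPM + 0.1)), removal of length and GC trends (loess, span 0.5), a replicate block, and omission of each library. Transcript length came from counts and FPKM (FPKM of at least 0.5, 90.0% of tested genes), and GC content from GENCODE transcripts of GRCm38 (97.9%). Chromosome numbers and promoters are from RefSeq (GRCm38.p6), another build than that of the counts.

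Replicates differed by more than counting noise (chi-square per degree of freedom 1.58 to 7.15, highest between Git2-KO replicates 1 and 2), and each was counted. Genes, lists and tests were chosen with earlier results of these data known. Named genes are Git2, the 8 members, called list genes (per list 4 by smallest p and 3 by highest level), and per member the 2 most correlated genes. Further list genes were named after their values were seen (Mlx, Mlxip, Slc2a8, Slc5a4b, Slc50a1, Galk1, Arrdc3, Itch, Ddit4, Gpd1, Scd2, Elovl6, Fasn, Foxa1, Foxa3, Lct, Sis, Tas1r2, Trpm5, Itpr3, Epcam, Krt8, Krt18, Krt19, Cldn7, Tff3, Clca1, Fcgbp, Spink4, Agr2, Pecam1, Csf1r, Slc4a1).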

Additional observations from a re-analysis of the deposited data

How the results depend on the processing

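Slc5a1, Slc2a1, Slc2a2, Khk, Tkfc, Mlxipl and Txnip kept their direction and call under all 21 alternatives. Slc2a5 kept its direction under all 20 it could be given in (it failed the 5 CPM filter) and its call under 5. Its log2 fold change without a call was -0.48 with library totals only, -0.53 with DESeq2, -0.50 with limma-voom, -0.52 without robust estimation, -0.23 and -0.30 with limma-trend on log2(TPM + 1) and log2(TPM + 0.1), -0.48 with the length trend removed, -0.45 with the GC trend removed and -0.36 with both removed. Leaving out 1 library at a time gave -0.71 to -0.30.

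Same-numbered Git2-KO and WT libraries had correlations of 0.041, -0.001 and 0.050 between their deviations from the group means. Differently numbered ones had -0.068 to 0.033. All were small, but they cannot show how the libraries were prepared, and the edgeR fit without covariates used no pairing. With the replicate block, 7441 genes were called, against 7725 without it, and Slc2a5 was at -0.51 (edgeR adjusted p = 0.0652), or -0.36 with the block and both trends removed. No other of the 8 calls changed under the block.

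Over all tested genes the number called lower was 1894 with limma-trend on log2(TPM + 1) and 1880 with a pseudocount of 0.1, against 3712. With the TPM fit, 75.1% of calls were higher, against 51.9% by edgeR on counts. The number called higher was 2562 with the GC trend removed, 2224 with both trends removed and 2217 with the replicate block added to that, against 4013.

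List counts moved as follows, and the shares of all tested genes called moved too. On the log2(TPM + 1) scale 42.1% were called higher and 14.0% lower. With both trends removed the shares were 18.6% and 27.2%, and with the GC trend removed 19.3% and 28.2%. By edgeR on counts they were 29.6% and 27.4%. On both TPM scales, fructose and galactose breakdown had 3 higher and 2 lower, hexose phosphorylation and glucose release 2 higher and 4 lower, ChREBP and MondoA targets 11 higher, Txnip partners 3 lower, distal genes 3 higher and absorptive enterocyte genes 6 lower. With both trends removed, with or without the replicate block, fructose and galactose breakdown had 2 higher, hexose phosphorylation 1 higher, ChREBP and MondoA targets 3 higher, sweet taste 1 lower, distal genes 2 higher and enterocyte genes 2 higher. With the length trend removed, hexose phosphorylation had 1 higher, ChREBP and MondoA targets 4 higher, sweet taste 1 lower and enterocyte genes 2 higher. With the GC trend removed, hexose phosphorylation had 1 higher, Txnip partners 1 higher, promoter factors 2 lower, distal genes 0 higher and enterocyte genes 3 higher. With no filter, sweet taste had 1 lower and enterocyte genes 3 higher, and with library totals or the 5 CPM filter distal genes had 2 higher. Leaving out 1 library gave 0 to 1 higher for hexose phosphorylation, 0 to 1 lower for sweet taste and 1 to 2 higher for distal genes. Beyond the removed trends and smaller sample sets, the cause was not tested. Depth limits Slc2a5, with 30 to 76 reads per library.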
